A study of Mus musculus with 8 samples.

Results

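Zinc finger proteins named Zfp in the mouse belong to the largest family of transcription factors, and 206 protein-coding genes with such a name were expressed in the brown adipose tissue examined here. They were chosen from a deposited table of 54532 genes by 3 criteria: a protein-coding biotype, a symbol made of Zfp, a number and at most a letter and number more, and a mean of at least 1 FPKM (a read density: fragments divided by gene length and by a depth factor of the library) over 8 libraries. The table held 394 protein-coding genes with such a symbol, of which 76 had a mean between 0.5 and 1 FPKM, 93 a mean above 0 but below 0.5 FPKM and 19 were listed at 0 in all 8 libraries. The criteria used the mean level and not the difference between genotypes. The family was nevertheless taken up with the genotype difference of these genes already known, so its counts are a description and no test was made of the family as a whole.

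The study compared brown adipose tissue of mice lacking O-GlcNAc transferase (OGT) in brown adipocytes, labelled OGTBKO (4 libraries), with tissue of wild-type mice, labelled WT and control (4 libraries), under a title that concerns paracrine stimulation of the tissue's blood vessels by O-GlcNAc signalling in adipocytes. All mice of both genotypes were kept at 23 °C on standard chow, were given an inducing agent after 8 weeks and were sampled 2 months later, with the surrounding white fat removed. The driver of the recombinase that deletes Ogt is not given in the sources used here. The labels do not say outright that each library is a separate animal, so p-values reflect the variation among these libraries, which may be technical. The samples carry 1 common batch value.

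OGT attaches single N-acetylglucosamine sugars to serines and threonines of nuclear and cytoplasmic proteins, many of them transcription factors and chromatin proteins. In a C2H2 zinc finger, a pair of cysteines and a pair of histidines hold a zinc ion, and arrays of such fingers read DNA a few bases at a time. Many Zfp proteins carry a KRAB box ahead of their fingers, which recruits the corepressor TRIM28 and the H3K9 methyltransferase SETDB1 and is best known for silencing retroelements. In fat, individual Zfp proteins are known for setting preadipocyte identity, brown fat gene expression and mRNA decay.

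The build of these genes is shown by a finger from each of the 2 KRAB genes with the largest and the fourth largest called decrease below, Zfp871 and Zfp719, and by the different finger of Zfp36, which binds RNA. They are coding bases of the GENCODE M21 transcripts (mm10), 5′ to 3′, and the capitals mark the codons of the cysteines and histidines that hold zinc. The Zfp871 stretch is finger 2 of 15 with its linker (coding bases 667 to 744, chromosome 17, minus strand), the Zfp719 stretch finger 2 of 13 (coding bases 1111 to 1188, chromosome 7, plus strand), and the Zfp36 stretch CCCH finger 1 of 2 (coding bases 301 to 360, chromosome 7, minus strand).
Zfp871 finger 2: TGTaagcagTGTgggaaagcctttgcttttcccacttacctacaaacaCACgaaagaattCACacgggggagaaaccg
Zfp719 finger 2: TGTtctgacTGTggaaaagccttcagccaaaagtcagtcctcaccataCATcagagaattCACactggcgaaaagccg
Zfp36 CCCH finger 1: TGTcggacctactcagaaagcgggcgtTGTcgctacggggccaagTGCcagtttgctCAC
The fingers of a gene resemble each other in sequence. Over 105 pairs of Zfp871 fingers the median identity was 59.0% of bases (range 38.5% to 75.6%), and over 78 pairs of Zfp719 fingers it was 62.2% (range 48.7% to 87.2%). Likeness between genes, rather than within a gene, bears on counting, because reads can then fit more than 1 gene. Zfp871 and Zfp719 shared 0.250% and 0.292% of their runs of 50 bases with other genes. In 98 of the 206 genes no run of 50 bases occurred in another gene, while in 30 genes at least 10% of such runs did.

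Each library held between 13393962 and 15897920 reads in genes, and the 206 genes together took 0.331% to 0.437% of them. Ogt, on the X chromosome (mm10 chrX:101640060-101684351, plus strand), read 10.7, 14.5, 12.8 and 11.8 FPKM in the OGTBKO libraries, against 33.1, 24.7, 23.9 and 22.5 FPKM in the WT libraries. Every OGTBKO value lay below every WT value (12.4 ± 1.65 FPKM in OGTBKO and 26.0 ± 4.80 FPKM in WT, SD, n = 4 each; log2 change -1.03, exact two-sided permutation p = 0.0286, the smallest that 70 assignments allow). All 11 brown adipocyte markers were present, with sums of 3300 to 4093 FPKM in OGTBKO and 3504 to 5364 FPKM in WT, of which Ucp1, Plin5 and Ppargc1a were called lower and Cox7a1 higher. The 6 skeletal muscle markers stood at 0.940 to 1193 FPKM in OGTBKO and 0.383 to 403 FPKM in WT and were highest in OGTBKO 1 and WT 1. Sums were 112 to 122 and 93.4 to 113 FPKM for 6 endothelial markers, 258.5 to 581 and 187 to 370 FPKM for 8 macrophage markers, 164 to 432 and 233 to 298 FPKM for 7 fibroblast markers, and 2.03 to 3.60 and 2.51 to 19.2 FPKM for 4 Schwann cell and nerve markers, each in OGTBKO and in WT; of these only the endothelial Cdh5 was called, as higher. No marker was listed at 0 in all libraries, the lymphocyte markers summed to at most 1.06 FPKM, and the part of these cells in the results below was not tested. In bulk tissue, fewer cells of a type and less RNA per cell cannot be told apart.

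Most Zfp genes were present at low levels in both genotypes. The median of the 206 means was 2.21 FPKM, 87 genes had a mean below 2 FPKM and 10 a mean above 10 FPKM, and none was listed at 0 in any library. The most abundant was Zfp36l2, an mRNA decay factor, with 50.1, 36.9, 28.1 and 29.8 FPKM in OGTBKO and 50.5, 36.2, 34.7 and 44.2 FPKM in WT. It was followed by Zfp91, a ubiquitin ligase, with a mean of 23.2 FPKM in OGTBKO and 27.4 FPKM in WT, and by the RNA-binding Zfp106, with 19.4 and 22.0 FPKM in OGTBKO and WT. Zfp706, with 18.1 and 18.5 FPKM, and Zfp703, with 16.6 and 16.9 FPKM in OGTBKO and WT, came next, and none of these 5 genes was called different. Just outside the level criterion stood Zfp560, Zfp608 and Zfp969 (means of 0.957, 0.961 and 0.994 FPKM), of which Zfp969 was called higher (log2 change 0.95, adjusted p = 0.0239) and is not counted below. Just inside it stood Zfp780b, Zfp945 and Zfp141 (1.01, 1.02 and 1.04 FPKM).

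On the deposited FPKM scale, the sum over the 206 genes was lower in every OGTBKO library than in any WT library. The sums were 727, 688, 654 and 687 FPKM in OGTBKO 1 to 4, against 773, 776, 786 and 766 FPKM in WT 1 to 4. The means were 689 ± 29.6 FPKM in OGTBKO and 775 ± 8.43 FPKM in WT (SD, n = 4 each). As a share of the reads in genes the groups overlapped: the 206 genes took 0.389%, 0.376%, 0.383% and 0.343% in OGTBKO 1 to 4, against 0.413%, 0.416%, 0.331% and 0.437% in WT 1 to 4. WT 3, the lowest of the 8 on that measure, had the smallest FPKM denominator relative to its total (0.790). It also had the largest share of reads in mitochondrial genes, 39.4%, beside 25.2% to 32.2% in the other libraries. The reads in genes include these mitochondrial reads. The overlap of the groups therefore depends on the total used, and a share without mitochondrial reads was not computed. Across genes, on the FPKM scale, the groups were also apart: the median level relative to each gene's mean over 8 libraries was -0.06, -0.07, -0.12 and -0.09 on the log2 scale in OGTBKO 1 to 4, and 0.09, 0.12, 0.11 and 0.09 in WT 1 to 4. For the 9877 other protein-coding genes of at least 1 FPKM that median stayed between -0.02 and 0.02 in all 8 libraries.

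**Figure D1:**
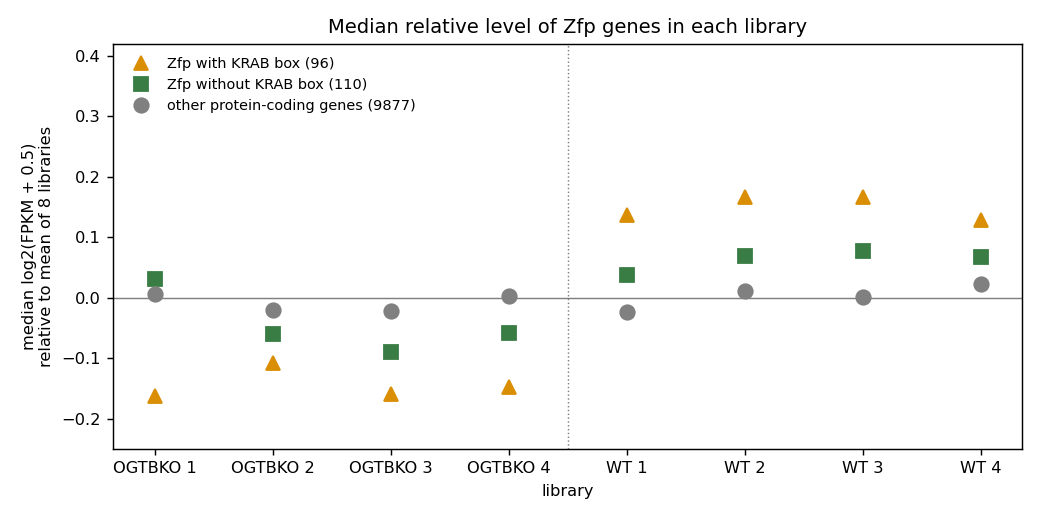
Median log2(FPKM + 0.5) of each gene group in each library, relative to each gene's mean over the 8 libraries; triangles are the 96 Zfp genes with a KRAB box, squares the 110 without one, circles the 9877 other protein-coding genes. The triangles lie between -0.16 and -0.11 in the 4 OGTBKO libraries and between 0.13 and 0.17 in the 4 WT libraries, while the circles stay near 0.

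Gene by gene, 42 of the 206 Zfp genes were lower and 6 higher in OGTBKO at an adjusted p under 0.05 (limma on log2(FPKM + 0.5), adjusted over 13171 genes), and 158 were not called. Among all genes tested 7.46% were called lower and 8.11% higher, 15.6% in either direction. The Zfp genes called lower were 20.4% of the 206 and those called higher 2.91%, where among the other protein-coding genes of at least 1 FPKM 8.32% were lower and 8.74% higher (8.57% and 8.62% with the Zfp genes included). The log2 change was below 0 in 149 of the 206 genes (72.3%), with a median of -0.18, beside a median of -0.002 over all genes tested. The decreases were modest and similar in size, between -0.77 and -0.37 on the log2 scale among the 42 genes called lower. Every OGTBKO value lay below every WT value in 63 of the 206 genes (30.6%), beside 11.4% of all genes tested, and above it in 12 (5.83%), beside 11.1%. The 42 genes called lower were without overlap except Zfp229 and Zfp715, as the call itself favours.

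The median stayed below 0 under all 16 alternatives computed, but the number of calls changed, and 8 of the 42 genes were called lower in all 8 fits that left out a library. Without 1 library the count of lower genes was 28 (OGTBKO 1), 18 (OGTBKO 2), 10 (OGTBKO 3), 16 (OGTBKO 4), 36 (WT 1), 11 (WT 2), 35 (WT 3) and 20 (WT 4), and of all genes tested between 2.1% (without OGTBKO 3) and 7.62% (without WT 1) were then called lower. When FPKM was recomputed on library totals, which include reads in mitochondrial genes, 12 Zfp genes were lower and 8 higher. Among all genes tested 1.89% were then lower and 7.44% higher. The median of the Zfp genes was -0.09 and that of all genes tested 0.09. When each library's trend of level on GC content and length was removed, 14 were lower and 4 higher, with a median of -0.12. Zfp871, Zfp263, Zfp719, Zfp292, Zfp266 and Zfp874a were called lower, and Zfp185 higher, under all 16.

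Zfp871, a KRAB gene on chromosome 17 (mm10 chr17:32771236-32788287, minus strand) with 15 fingers, had the largest called decrease. It read 3.56, 3.36, 2.73 and 2.95 FPKM in OGTBKO 1 to 4, against 5.03, 6.20, 6.47 and 5.24 FPKM in WT 1 to 4. The highest OGTBKO value was well below the lowest WT value. The log2 change was -0.77 ± 0.12 (SE), with an adjusted p of 0.00670, and the OGTBKO mean was 0.549 times the WT mean.

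Zfp292 encodes a large protein first described in the rat as an activator of the growth hormone gene. Its gene lies on chromosome 4 (mm10 chr4:34803113-34882960, minus strand) and its longest coding transcript encodes 2698 residues. It read 2.56, 3.05, 2.15 and 2.81 FPKM in OGTBKO and 4.07, 4.35, 4.93 and 4.54 FPKM in WT, without overlap (log2 change -0.67 ± 0.11, adjusted p = 0.00947). Zfp263, whose human counterpart is a SCAN-domain protein, read 2.22, 1.46, 1.80 and 1.46 FPKM in OGTBKO and 3.06, 3.34, 3.38 and 2.64 FPKM in WT. It lies at mm10 chr16:3744093-3750790 on the plus strand, and its log2 change was -0.70 ± 0.14 (adjusted p = 0.0137).

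The KRAB gene Zfp719 (mm10 chr7:43579610-43593235, plus strand) read 1.02, 1.23, 0.827 and 1.31 FPKM in OGTBKO and 1.96, 2.18, 1.93 and 2.11 FPKM in WT. All 4 OGTBKO libraries were near 1 FPKM and all 4 WT libraries near 2 FPKM. The log2 change was -0.68 ± 0.13 (adjusted p = 0.0121). Zfp266, a KRAB protein known in mouse fibroblasts as a barrier to reprogramming into cardiac muscle cells, read 3.52, 3.51, 3.21 and 3.62 FPKM in OGTBKO and 5.48, 5.74, 6.22 and 4.62 FPKM in WT (log2 change -0.59 ± 0.10, adjusted p = 0.0101). Its OGTBKO values were closer together than its WT values, and the groups did not overlap. Zfp874a read 1.63, 1.64, 1.73 and 1.58 FPKM in OGTBKO and 2.69, 2.74, 2.93 and 2.43 FPKM in WT (log2 change -0.57 ± 0.10, adjusted p = 0.00875). It shared 11.9% of its 50-base runs with other genes, so part of its value could belong to a near copy.

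Zfp758 was the second largest called decrease and varied more, with 3.67, 3.05, 2.88 and 4.49 FPKM in OGTBKO and 4.75, 7.52, 6.32 and 6.21 FPKM in WT (log2 change -0.74, adjusted p = 0.0205). OGTBKO 4 came close to WT 1, and the call was lost in 3 of the 8 fits that left out a library. Zfp760, Zfp974, Zfp317, Zfp60, Zfp507, Zfp931 and Zfp780b completed the 12 largest called decreases, at log2 changes between -0.66 and -0.63. A KRAB box was found, by the sequence match described below, in 9 of these 12 genes, all except Zfp263, Zfp292 and Zfp507. Those matched 9, 10 and 8 residues where 14 were required, so a divergent box in them may be missed. Zfp931 was the most abundant of them, with 5.09, 8.86, 5.52 and 8.47 FPKM in OGTBKO and 12.5, 9.66, 11.0 and 10.1 FPKM in WT, and the least stable, with the call lost in 7 of the 8 fits. Zfp974, Zfp931 and Zfp780b shared 13.6%, 16.7% and 27.2% of their 50-base runs with other genes, so their levels are uncertain.

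**Figure D2:**
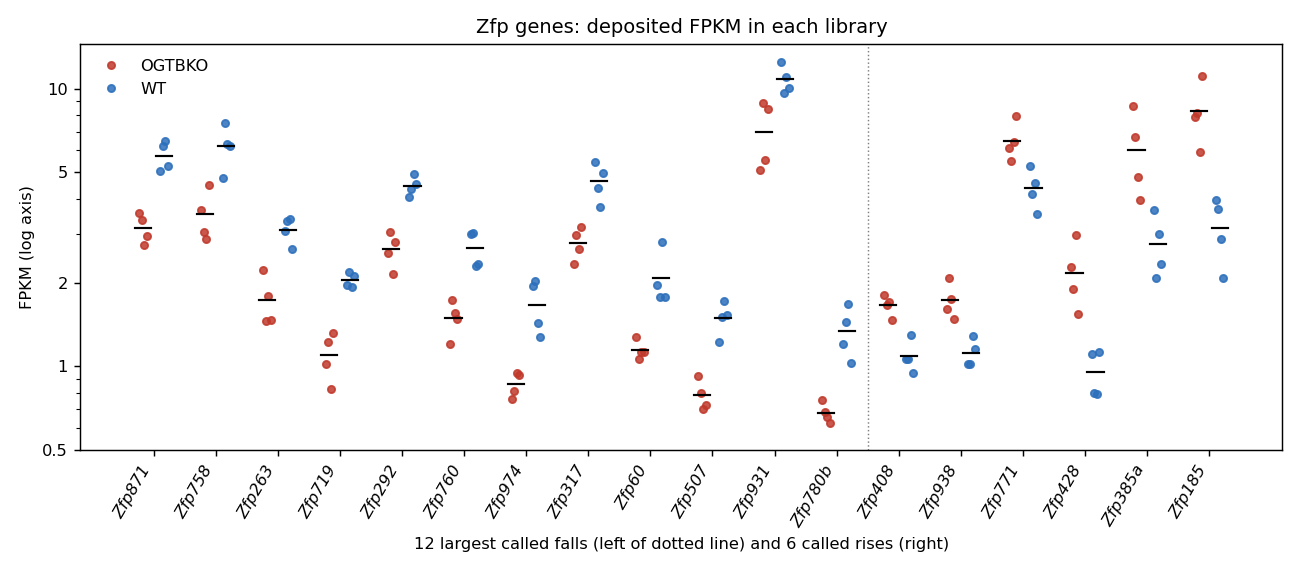
Deposited FPKM (log axis) in each OGTBKO library and each WT library for the 12 largest called decreases and the 6 called increases among the Zfp genes; short lines are group means. Zfp871, at the left, has means of 3.15 FPKM in OGTBKO and 5.73 FPKM in WT, and Zfp185, at the right, has 8.28 FPKM in OGTBKO and 3.15 FPKM in WT.

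The 6 genes called higher were Zfp185, Zfp385a, Zfp428, Zfp771, Zfp938 and Zfp408. Zfp185, on the X chromosome (mm10 chrX:72987339-73031543, plus strand), is named as a zinc finger gene but encodes a LIM-domain protein of the actin cytoskeleton, and no C2H2 finger was found in it. It read 7.90, 8.19, 5.93 and 11.1 FPKM in OGTBKO and 3.97, 3.67, 2.88 and 2.08 FPKM in WT. The ratio of means was 2.63, and the log2 change was 1.27 ± 0.22 (adjusted p = 0.00938).

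Zfp385a (also called Hzf) binds RNA, and in mouse fat cells it is known to promote adipogenesis through translation of C/EBPα. It read 8.64, 6.69, 4.80 and 3.97 FPKM in OGTBKO and 3.64, 2.08, 3.004 and 2.33 FPKM in WT, with OGTBKO 4 just above WT 1 (log2 change 0.97 ± 0.24, adjusted p = 0.0276). Zfp428, a short gene with 1 recognisable finger, read 2.28, 1.90, 2.98 and 1.54 FPKM in OGTBKO and 1.10, 0.801, 0.794 and 1.12 FPKM in WT (log2 change 0.86 ± 0.18, adjusted p = 0.0170). The call was lost in 4 of the 8 fits without a library for Zfp385a and in 1 for Zfp428. The other 3 increases were smaller: Zfp771 averaged 6.49 ± 1.06 FPKM in OGTBKO and 4.38 ± 0.716 FPKM in WT, Zfp938 1.73 ± 0.254 and 1.12 ± 0.129 FPKM, and Zfp408 1.66 ± 0.142 and 1.09 ± 0.147 FPKM (SD, n = 4 each). Their log2 changes were 0.52, 0.46 and 0.44 (adjusted p = 0.0407, 0.0408 and 0.0372), and Zfp938 was the only one of the 6 with a KRAB box. These calls were lost in 6, 7 and 7 of the 8 fits without a library. With the GC and length trends removed, 4 of the 6 calls were lost: the log2 change was then 0.05 for Zfp771 (adjusted p = 0.878), 0.29 for Zfp408 (0.131), 0.64 for Zfp385a (0.0897) and 0.47 for Zfp428 (0.0716). Human ZNF408, the counterpart of Zfp408, is known for its part in retinal blood vessels.

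Among 9 genes known from fat cells, 7 reached the level criterion. Of these, 1 was lower, none was higher and 6 were not called, with a median log2 change of -0.18. Here and for the lists of known roles that follow, the shares over all genes tested are 7.46% lower and 8.11% higher. The gene called lower was Zfp638, a cofactor of C/EBP proteins in adipogenesis, with 2.60, 3.10, 2.60 and 3.07 FPKM in OGTBKO and 4.10, 3.56, 4.35 and 3.62 FPKM in WT. The groups did not overlap, but the decrease was small (log2 change -0.40 ± 0.11, adjusted p = 0.0353) and the call was lost in each of the 8 fits without a library. Zfp516, which binds the Ucp1 promoter and drives brown fat genes, read 1.73, 1.72, 1.67 and 1.62 FPKM in OGTBKO and 1.76, 2.62, 2.09 and 2.63 FPKM in WT (log2 change -0.33, 95% interval -0.62 to -0.05, adjusted p = 0.106). WT 1 was level with the OGTBKO libraries, and the other 3 WT libraries were higher.

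Zfp423, which sets preadipocyte commitment and restrains the thermogenic program of white fat cells, had 3.49, 3.32, 3.03 and 2.45 FPKM in OGTBKO and 3.68, 2.15, 3.503 and 2.52 FPKM in WT. Its groups overlapped throughout (log2 change 0.06, 95% interval -0.32 to 0.44). Zfp467, which favours fat over bone cell fate, averaged 5.60 ± 0.656 FPKM in OGTBKO and 4.52 ± 0.760 FPKM in WT (log2 change 0.29, adjusted p = 0.178). Zfp746 (PARIS), a repressor of the PGC-1α gene, averaged 1.36 ± 0.190 FPKM in OGTBKO and 1.599 ± 0.0772 FPKM in WT (adjusted p = 0.325). Zfp395 and Zfp217 had log2 changes of -0.22 and -0.04 and were not called. Zfp521, a repressor of adipogenesis, and Zfp407 had means of 0.756 and 0.825 FPKM and fell below the level criterion.

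The 3 genes of the tristetraprolin group bind AU-rich elements in mRNAs through CCCH fingers and speed mRNA decay, and none was called by limma (1 at an unadjusted p under 0.05). Zfp36, tristetraprolin itself (mm10 chr7:28376784-28380253, minus strand), had 5.12, 9.52, 7.04 and 5.24 FPKM in OGTBKO and 3.58, 3.28, 2.64 and 5.46 FPKM in WT. WT 4 exceeded 2 of the OGTBKO libraries, and the adjusted p was 0.0550 (log2 change 0.77 ± 0.24). Zfp36l1 and Zfp36l2 had log2 changes of -0.13 and -0.21.

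Of 10 genes linked to RNA, translation or the spindle, 1 was higher (Zfp385a), 1 was lower and 8 were not called. The lower one was Zfp207 (BuGZ), a spindle assembly factor, which read 10.6, 11.8, 11.9 and 10.2 FPKM in OGTBKO and 18.9, 14.8, 13.4 and 14.6 FPKM in WT (log2 change -0.45 ± 0.12, adjusted p = 0.0376). It was the most abundant of the 42 genes called lower, and its groups did not overlap. The call was lost in 6 of the 8 fits without a library, and with the GC and length trends removed (log2 change -0.27, adjusted p = 0.182). Zfp598, the ligase that senses collided ribosomes, Zfp622, a factor of large ribosomal subunit maturation, and the splicing-linked Zfp326 and Zfp830 were among those not called.

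None of 14 chromatin and promoter partners was called by limma in either direction (2 lower and 2 higher at an unadjusted p under 0.05), and their median log2 change was -0.05. The nearest to a call were Zfp148, Zfp503, Zfp644 and Zfp335, with log2 changes of -0.33, 0.51, -0.34 and 0.29 and adjusted p of 0.0664, 0.0707, 0.0750 and 0.0788. Zfp335 is a part of H3K4 methyltransferase complexes, and Zfp644 works with the H3K9 methyltransferase G9a. Of 4 genes for imprints and retroelements, 1 was lower and 3 were not called. The lower one, Zfp568, represses a placental Igf2 transcript in the mouse, and it read 1.25, 1.03, 0.930 and 1.15 FPKM in OGTBKO and 1.39, 2.12, 2.43 and 1.66 FPKM in WT (log2 change -0.58 ± 0.16, adjusted p = 0.0400, with the call lost in 7 of 8 fits without a library). Zfp445, a keeper of genomic imprints, had a log2 change of -0.18 and Zfp809, which silences murine leukaemia virus DNA, one of 0.23.

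**Figure D3:**
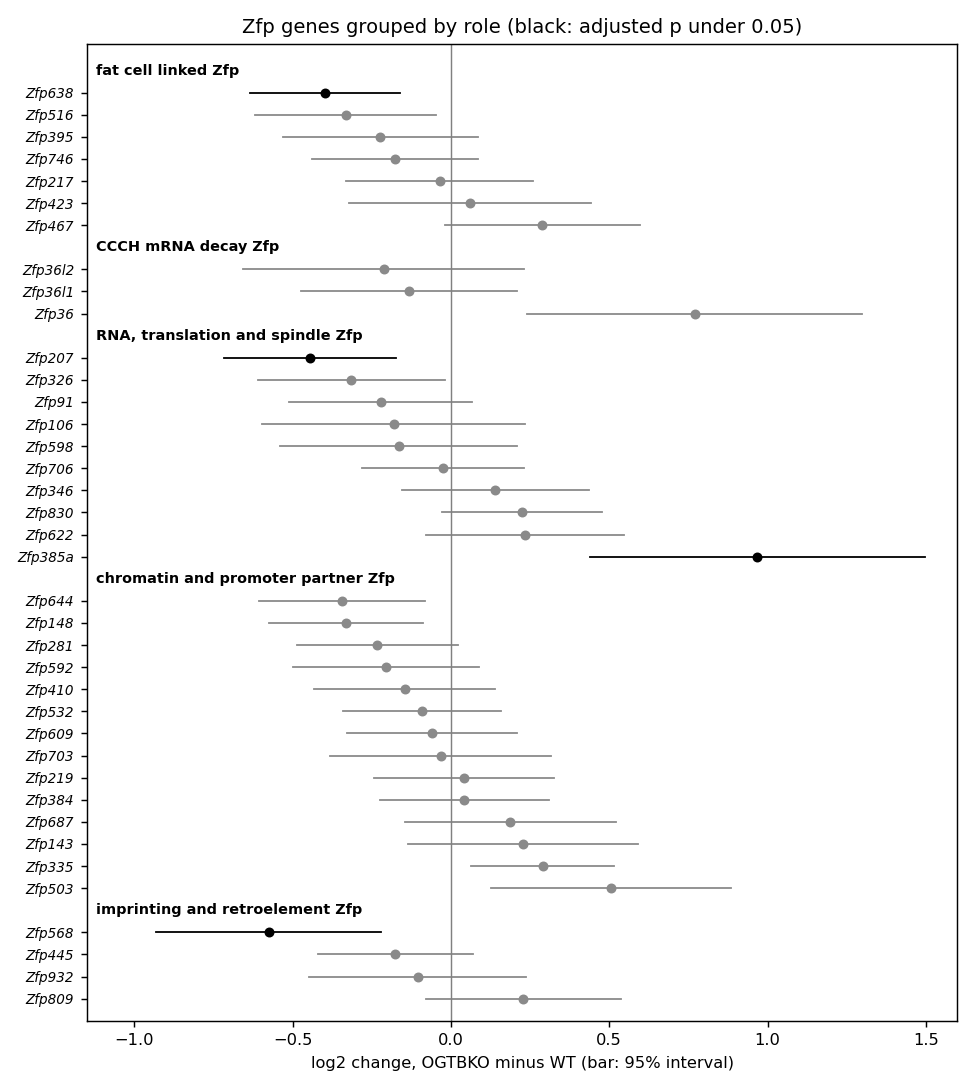
Log2 change, OGTBKO minus WT, with its 95% interval for the Zfp genes on each list of known roles; black points have an adjusted p under 0.05. Zfp638, Zfp207 and Zfp568 are black to the left of 0 and Zfp385a is black to the right of it, while all 14 chromatin and promoter partners are grey.

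A KRAB box was found in 96 of the 206 genes, by the best match of the translated coding sequence to a KRAB-A consensus of 37 residues. Genes called as having a box matched at least 14 residues and the others at most 11, so divergent boxes may be missed. Genes described as without the box are those in which this match found none, and some of them may carry one. Of the 96 KRAB genes, 25 were lower and 1 higher, 81 had a log2 change below 0, and the median was -0.28. Of the 110 genes without the box, 17 were lower and 5 higher, 68 were below 0, and the median was -0.10. The shares called lower were 26.0% and 15.5%, beside 8.32% of the other protein-coding genes of at least 1 FPKM. The KRAB genes stood lower in every OGTBKO library, with medians of -0.16, -0.11, -0.16 and -0.15 relative to the mean of 8 libraries, against 0.14, 0.17, 0.17 and 0.13 in WT. The genes without the box stood at 0.03, -0.06, -0.09 and -0.06 in OGTBKO and 0.04, 0.07, 0.08 and 0.07 in WT, so that OGTBKO 1 was nearly level with WT 1.

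The 2 groups of Zfp genes differed in base composition as well as in the box. The median GC content of the longest transcript was 40.5% with the box and 50.02% without it. Below the median GC content of the 206 genes, 44.3%, the KRAB genes (74 genes, 22 lower) had a median log2 change of -0.30 and the genes without the box (29 genes, 12 lower) one of -0.34. At or above it, the KRAB genes (22 genes, 3 lower) had a median of -0.21 and the genes without the box (81 genes, 5 lower and 5 higher) one of -0.01. The Zfp shares called lower, in the order given, were 29.7%, 41.4%, 13.6% and 6.17%. Among the other protein-coding genes, 21.3% of 2150 below that GC content were lower (median -0.20). At or above it 4.72% of 7720 were lower (median 0.05). With the GC and length trends of each library removed, the medians over all KRAB genes and all genes without the box were -0.14 and -0.10. The part of the box as such was not tested.

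Of 23 genes of the machinery that KRAB proteins recruit, 3 were lower, none was higher and 20 were not called. Their median log2 change was -0.06. Among all genes tested 7.46% were lower and 8.11% higher. Trim28, the KRAB corepressor, averaged 10.4 ± 0.494 FPKM in OGTBKO and 9.86 ± 0.962 FPKM in WT (log2 change 0.08, 95% interval -0.14 to 0.30, adjusted p = 0.621), and Setdb1 averaged 3.14 ± 0.0689 and 2.90 ± 0.339 FPKM in OGTBKO and WT. The 3 lower genes were Atrx, a chromatin remodeller (log2 change -0.51), the heterochromatin protein gene Cbx1 (-0.41) and Fam208a, a component of the HUSH silencing complex (-0.55). None of these 3 was called after the GC and length trends were removed.

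The number of C2H2 fingers ran from 0 to 40, with a median of 9. Of 15 genes with at most 1 finger, 2 were higher and none was lower, and of 34 genes with 2 to 5 fingers, 4 were lower and 1 higher. With 6 to 9 fingers 12 of 56 genes were lower, with 10 to 14 fingers 17 of 65, and with 15 to 40 fingers 9 of 36. Those shares are 21.4%, 26.2% and 25%, beside 7.46% of all genes tested and 8.32% of the other protein-coding genes. The median log2 change was -0.03, -0.17, -0.16, -0.25 and -0.23 over these 5 classes. Median GC content fell across them, from 52.3% with at most 1 finger to 40.9% with 15 to 40 fingers. Below 44.3% GC, 21.3% of the other protein-coding genes were lower. After removal of the GC and length trends, 0, 0, 4, 7 and 3 genes of these classes were lower. Their medians were then 0.103, -0.12, -0.08, -0.14 and -0.19. Spearman's rho between log2 change and finger number was -0.25 before removal and -0.15 after it. The part of finger number as such was not tested. Other zinc finger families were described alongside. Of 29 Zbtb genes 8 were lower (27.6%) and 1 higher (median -0.25). Of 12 Zscan and Zkscan genes 3 were lower (25%, median -0.29), and of 13 Zc3h genes 1 was lower (7.69%, median -0.05). With the GC and length trends removed, 8, 2 and 1 genes of these families were lower (medians -0.21, -0.25 and 0.001). Beside them, 14 of the 206 Zfp genes and 5.0% of all genes tested were then lower.

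The log2 change of the Zfp genes ran with gene length. Across the 206 genes Spearman's rho between log2 change and length was -0.26, and across the 9877 other protein-coding genes it was -0.31; these describe genes that share the same 8 libraries and are not replicates. The slope per doubling of length was -0.12 in the Zfp genes and -0.11 in the others. In 4 equal classes of Zfp genes by length, from 1258 to 3065, 3164 to 4743, 4755 to 6733 and 6745 to 15839 bases, the genes called lower numbered 4 of 52, 10 of 51, 17 of 51 and 11 of 52. In the same length ranges 4.06%, 7.43%, 8.82% and 14.1% of the other genes were lower, so the Zfp share was above that of the others in each range but did not climb into the longest one. The medians over the 4 length classes were -0.03, -0.16, -0.31 and -0.23 for the Zfp genes and 0.14, 0.01, -0.05 and -0.13 for the others.

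The extremes of length showed both ends of this spread. The longest Zfp gene, Zfp451 (15839 bases), a SUMO ligase, read 0.850, 1.08, 0.871 and 0.857 FPKM in OGTBKO and 1.48, 1.39, 1.51 and 1.55 FPKM in WT (log2 change -0.49 ± 0.12, adjusted p = 0.0257). The next longest, Zfp638 (15810 bases), was also lower, while Zfp652, Zfp704, Zfp644 and Zfp318 were not called. Of the 6 shortest, Zfp428 (1308 bases) was higher and Zfp580, Zfp524, Zfp982, Zfp825 and Zfp869 were not called. In Zfp869, a KRAB gene of 1590 bases, the log2 change was -0.46 (adjusted p = 0.0692).

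The change also ran with the GC content of the transcripts. Spearman's rho between log2 change and GC content was 0.44 across the 206 Zfp genes and 0.39 across the other protein-coding genes. In 4 equal classes by GC content (33.2% to 40.0%, 40.1% to 44.1%, 44.5% to 51.9% and 51.9% to 68.7%) 15, 19, 7 and 1 Zfp genes were lower, which is 28.8%, 37.3%, 13.7% and 1.92% of each class. Of the other genes in the same ranges 26.1%, 19.6%, 6.80% and 2.50% were lower. The Zfp share was above that of the other genes in the 3 lower ranges, by most in the second, and below it in the highest. GC content and length were nearly unrelated among the Zfp genes (rho -0.09), and of the 42 genes called lower 34 lay below the median GC content and 28 above the median length.

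**Figure D4:**
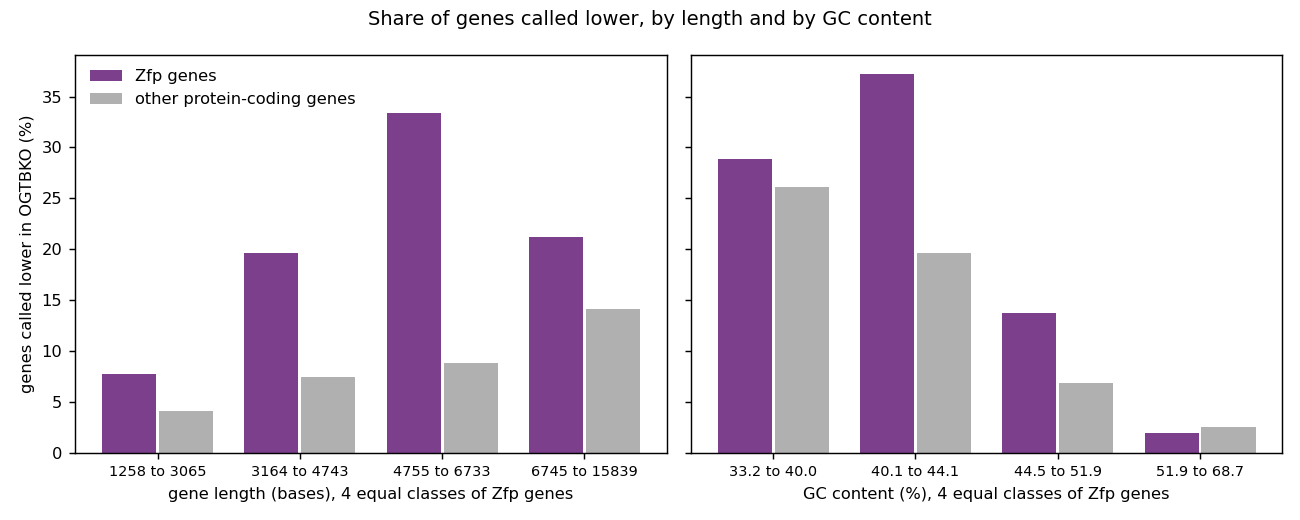
Percent of genes called lower in OGTBKO in 4 ranges of gene length (left, bases) and of GC content (right, percent), each range holding an equal share of the Zfp genes; dark bars are Zfp genes and grey bars other protein-coding genes. The Zfp bars reach 33.3% in the third length range against 8.82% of the other genes, and fall to 1.92% in the highest GC range against 2.50%.

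Mean level showed no such order: rho between log2 change and mean FPKM was 0.03 across the 206 genes, and 10, 11, 8 and 13 genes were lower in 4 equal classes from the least to the most abundant. With GC content, rho was 0.04 across the 96 genes with a KRAB box, of which 74 lay below 44.3% GC, and 0.53 across the 110 without one; this difference was not tested. With length it was -0.26 with the box and -0.43 without it. Each library carried its own trends. The slope of relative level on GC content was 0.0237, 0.00361, 0.0119 and 0.00487 per percentage point among the Zfp genes in OGTBKO 1 to 4 and -0.0114, -0.0140, -0.0111 and -0.00753 in WT 1 to 4, and the slope per doubling of length was -0.04, -0.07, -0.08 and -0.06 in OGTBKO and 0.01, 0.07, 0.11 and 0.05 in WT. Among the other protein-coding genes the GC slopes were 0.0223, 0.00418, 0.0169 and 0.00290 in OGTBKO 1 to 4. In WT 1 to 4 they were -0.0132, -0.0143, -0.0115 and -0.00730. The length slopes of these other genes were -0.04, -0.05, -0.08 and -0.06 in OGTBKO and 0.002, 0.06, 0.14 and 0.02 in WT. The genotypes did not overlap in either slope, in the Zfp genes or in the others. Genotype and these per-library trends cannot be told apart in the design.

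**Figure D5:**
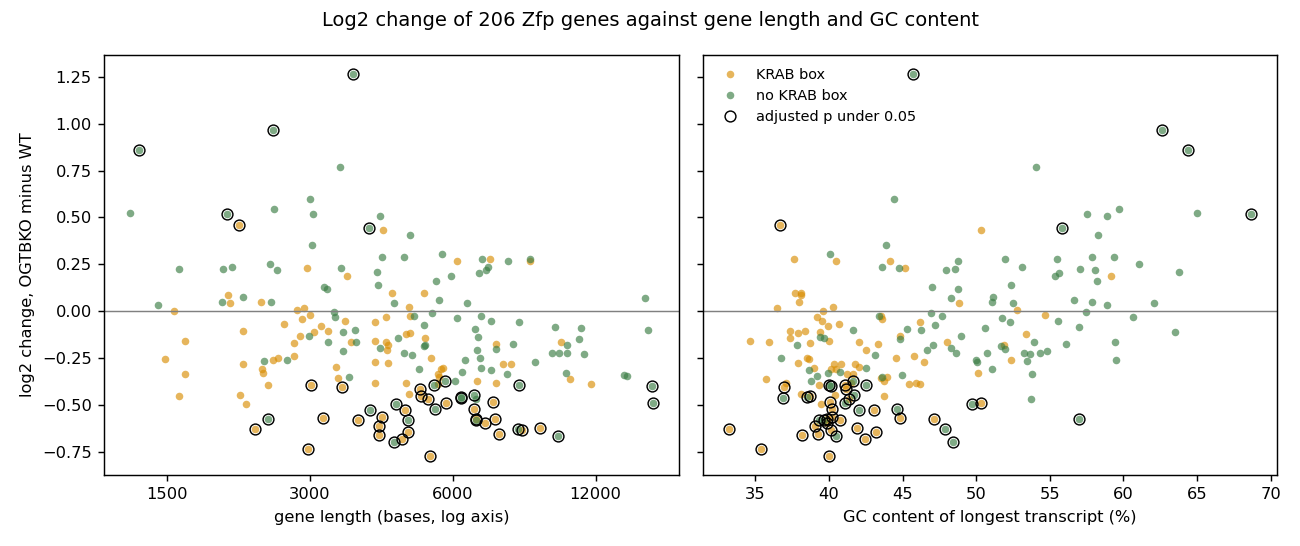
Log2 change, OGTBKO minus WT, of the 206 Zfp genes against gene length (left, bases, log axis) and against GC content of the longest transcript (right, percent); orange points have a KRAB box, green points do not, and rings mark an adjusted p under 0.05. Most ringed points below 0 have a GC content under 44.3%, and 5 of the 6 ringed points above 0 have no KRAB box.

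Both trends were fitted over all genes tested, and after removal a length slope remained, of -0.06 per doubling in the Zfp genes and -0.05 in the others. After removal 14 Zfp genes were lower, which is 6.80% of the 206, beside 5.0% of all genes tested and 559 of the 9877 other protein-coding genes. A further 4 were higher, beside 6.07% of all genes tested and 656 of the 9877. The 4 higher genes were Zfp185 and Zfp938, of the 6 named above, and Zfp160 and Zfp330, which were not called before removal. The 14 lower genes were Zfp871, Zfp263, Zfp719, Zfp292, Zfp760, Zfp317, Zfp507, Zfp266, Zfp329, Zfp358, Zfp874a, Zfp383, Zfp180 and Zfp12, all among the 42. Zfp358 was the gene with the highest GC content in this group, 57.0%, and read 4.66, 4.33, 3.90 and 3.89 FPKM in OGTBKO and 6.02, 5.38, 8.96 and 6.05 FPKM in WT (log2 change -0.58 before removal). The Zfp medians were then -0.04, -0.20, -0.14 and -0.11 over the GC classes.

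Many mouse Zfp genes sit in clusters, and the genes are given here by chromosome. Chromosome 7 held 46 of the 206 genes, of which 13 were lower and 2 higher (median -0.20), and chromosome 17 held 33, of which 5 were lower (median -0.21). On chromosome 13, with 13 genes, 6 were lower, 12 were below 0 and the median was -0.44, and on chromosome 16, with 4 genes, 3 were lower. Chromosome 8 held 15 genes, of which 2 were lower. Of the other protein-coding genes on chromosomes 7, 17, 13, 16 and 8, 6.90%, 5.17%, 9.59%, 11.2% and 4.17% were lower. With the GC and length trends removed, the lower Zfp genes on these chromosomes numbered 5, 2, 1, 1 and 1. The median GC content of the Zfp genes was 40.1% on chromosomes 13 and 16 and 48.2% on chromosome 7. The part of the chromosome was not tested. Neighbours in such clusters are often near copies. From gene start to gene end, introns included, 85 of the 206 genes overlap another gene, 64 of them one on the opposite strand. The strand setting of the counting is not stated, so it is not known whether reads of opposite strands were kept apart. Overlap of exons was not examined.

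Promoter windows from 250 bases before to 50 bases after a RefSeq start (GRCm38.p6) were found for 172 of the 206 genes. For each gene the RefSeq start nearest its own listed start was taken, without a limit on the distance. Those of KRAB genes were poorer in GC (median 52.8%, with 11.5 CpG) than those of genes without the box (60.2%, 20.5 CpG) and of other protein-coding genes (61.7%, 22 CpG). The windows of Zfp871 (mm10 chr17:32788238-32788537, minus strand) and Zfp292 (chr4:34882899-34883198, minus strand) are shown as a KRAB promoter of low GC content and one without the box of high GC content. The capitals in the Zfp292 window mark an AAGATGGC word, which the Zfp871 window does not hold.
Zfp871 promoter: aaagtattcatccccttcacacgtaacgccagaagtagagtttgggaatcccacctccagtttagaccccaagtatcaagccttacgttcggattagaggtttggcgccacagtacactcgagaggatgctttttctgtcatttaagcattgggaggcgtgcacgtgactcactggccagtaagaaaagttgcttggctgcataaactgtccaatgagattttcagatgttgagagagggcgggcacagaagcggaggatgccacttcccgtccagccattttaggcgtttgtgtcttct
Zfp292 promoter: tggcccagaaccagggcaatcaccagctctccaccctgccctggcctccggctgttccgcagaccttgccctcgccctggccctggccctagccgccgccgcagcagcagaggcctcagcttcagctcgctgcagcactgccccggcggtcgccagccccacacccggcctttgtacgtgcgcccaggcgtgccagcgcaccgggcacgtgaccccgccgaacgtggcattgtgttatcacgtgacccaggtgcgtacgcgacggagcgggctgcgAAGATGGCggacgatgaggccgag
The Zfp871 window is 49.0% GC with 12 CpG and the Zfp292 window 70.3% GC with 30 CpG, and the log2 changes of these genes were -0.77 and -0.67.

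These windows were searched on both strands for 7 words: CCGGAAG (ETS), AAGATGGC (YY1), TGACGTCA (CRE), the CCAAT box word, TATAAA as a TATA box, the SP1 word GGGCGG and the NRF1 palindrome. The ETS word was in 20.9% of the Zfp windows, 19.6% of those of other expressed protein-coding genes and 8.86% of all 32851 windows. The CCAAT word was in 59.3% of KRAB windows, 41.9% of the windows of Zfp genes without the box and 38.2% of those of other genes. The AAGATGGC word was in 8 Zfp windows (4.65%), against 5.16% of other genes and 2.75% of all windows. Those 8 included 6 of the 38 windows of genes called lower (15.8%), 2 of the 128 not called (1.56%) and none of the 6 called higher. This was singled out from 7 words after the counts were seen and was not tested; a word is a match of letters, not a binding site. The 8 stretches are given in the direction of the word, which is in capitals, with 10 bases on either side.
Zfp292 (chr4:34882905-34882932): gcgggctgcgAAGATGGCggacgatgag
Zfp507 (chr7:35802966-35802993): ccgtggctccAAGATGGCggcgccgaga
Zfp383 (chr7:29908437-29908464): actggcggggAAGATGGCatccattctc
Zfp451 (chr1:33814682-33814709): gcatctccggAAGATGGCaggaggaggt
Zfp207 (chr11:80383196-80383223): taaccccattAAGATGGCggcagcgccc
Zfp617 (chr8:71922830-71922857): gccagcaagaAAGATGGCgggtgaggaa
Zfp68 (chr5:138619709-138619736): caccgagcccAAGATGGCggctcccaga
Zfp809 (chr9:22225730-22225757): cacaggacccAAGATGGCaggctcagac
Zfp68 and Zfp809 are those not called, with log2 changes of -0.28 and 0.23. Among the 6 genes called lower, the log2 changes were -0.67 (Zfp292), -0.63 (Zfp507), -0.57 (Zfp383), -0.49 (Zfp451), -0.45 (Zfp207) and -0.39 (Zfp617). The Zfp617 stretch lies well inside that gene (mm10 chr8:71908635-71934629, plus strand) and not at its listed start. Its window may thus not be the promoter of the transcripts counted.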

How the data were processed

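RNA of brown adipose tissue was made into libraries with a NEBNext Ultra kit, per the labels' protocols, and the submitters' processing notes list the tools HISAT2 (2.0.5) and featureCounts (1.5.0-p3, of Subread) and the build mm10. The authors deposited FPKM values, whose denominators were between 0.790 and 1.13 times the library totals. Reads were recovered from them as whole multiples in 100% of values (tolerance 0.001), and 1 read in 1 kb was worth 0.0556 to 0.0945 FPKM. Libraries of a group differed by more than sampling noise (chi-square per degree of freedom 17.6 to 111).

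OGTBKO was compared with WT in limma 3.58.1 (R 4.3.3, eBayes with a trend, two-sided) on log2(FPKM + 0.5), a scale that understates the change of low genes, for genes with a mean of at least 0.5 FPKM. P-values were adjusted by Benjamini-Hochberg over 13171 genes. The p of Ogt came from an exact permutation test. The alternatives were other pseudocounts, no filter, library totals as denominator, a replicate block, removed trends and each library left out. GC content, fingers and KRAB boxes were read from GENCODE M21 transcripts, which held 99.8% of the gene identifiers. The scripts were tested on simulated data.

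The Zfp genes and all lists were chosen with earlier results of these data known. Named genes are those on the lists of known roles, the 12 largest called decreases and increases, the 6 most abundant, longest and shortest, and the 3 on either side of 1 FPKM; Zfp229, Zfp715, the 6 genes stable under every alternative, those called after trend removal, Zfp969's call and those with the AAGATGGC word were named after their values were seen.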

Additional observations from a re-analysis of the deposited data

Results flagged for a closer look

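In 150 groups of 4 libraries, formed by the named genes in each genotype, 6 held a library far from the other 3, and chance alone gives about 1 in 20. Zfp36l1 was at 10.1 FPKM in OGTBKO 1, below the other OGTBKO libraries at 12.1 to 12.3 FPKM. Zfp106 was at 26.5 FPKM in OGTBKO 1, above the others at 16.4 to 18.02 FPKM; this library also held the highest skeletal muscle marker sum, 1193 FPKM, whose part was not tested. Zfp704 was at 1.37 FPKM in OGTBKO 4, with the others at 1.24 to 1.26 FPKM, and Zfp451 at 1.08 FPKM in OGTBKO 2, with the others at 0.850 to 0.871 FPKM. In WT 3, Zfp687 was at 2.35 FPKM, with the other WT libraries at 1.54 to 1.57 FPKM, and Zfp318 at 2.76 FPKM, with the others at 1.97 to 1.98 FPKM.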

How the results depend on the processing

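Under none of the 16 alternatives did the median change of the Zfp genes, its relation with length or the change of a named gene turn its direction where it was called. The count of lower genes, 42, was 15 without a filter on low values, 12 with library totals as denominator and 10 to 36 with 1 library left out. It was 14 with the GC and length trends removed and 15 with the GC trend alone removed (chosen after the data were seen). With the length trend alone removed it was 40, of which 39 were among the 42, beside 7.45% lower of all genes tested. The median log2 change of the Zfp genes was then -0.18. The count of higher genes, 6, was 2 without the filter and 1 to 6 with 1 library left out. Of all genes tested 7.46% were lower, and 1.83% without the filter (of 26825 genes), 1.89% with library totals, 5.0% with both trends removed and 4.71% with the GC trend removed. A planned count test on the recovered reads was not run. The median log2 change, -0.18, was -0.21 with a pseudocount of 0.1, -0.089 with library totals, -0.12 without GC and length trends, -0.14 without the GC trend and -0.21 to -0.17 with 1 library left out. Spearman's rho with length, -0.26, was -0.18 with the length trend removed, -0.17 with both removed and -0.28 to -0.23 with 1 library left out. In the other protein-coding genes it was -0.31, and -0.22 and -0.14 with the length trend and both removed. The cause of the differences in calls was not tested.

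With the replicate number as a block, 8 genes were lower and 2 higher, beside 2.48% and 4.26% of all genes tested. Deviations of libraries with the same number correlated at 0.22, 0.17, 0.01 and -0.01, and 2 of the 4 numbers matched best with themselves. So few values cannot settle whether the numbers pair the samples.

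Genes near 1 FPKM rest on few reads, and 4 libraries a group limit what small changes can be called. All 8 libraries carry 1 batch value, so no within-batch value differs from the pooled one.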
